A study of Mus musculus with 66 samples.

Results

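The testes of mice at days 14, 18 and 20 after birth were compared with those of younger and older mice to find genes whose level peaked or dipped while the first wave of germ cells passed through meiosis. The samples were chosen by the day in their titles, 2 numbered samples each at days 14, 18 and 20, set against 2 each at days 6, 8 and 10 and 2 each at days 30, 35 and 56. That makes 6 samples of 22 for days 14 to 20, 6 for days 6 to 10 and 6 for days 30 to 56, and days 0 and 3 entered the fit but no comparison. All mice were of a BL/6-129 background with no treatment named, and total RNA of the testis was measured. With 3 arrays per sample, of types named A, B and C, days 14 to 20 hold 18 of the 66 arrays. Nothing in the labels tells if the paired samples came from different mice or from pooled testes, so the p-values measure the spread between these samples, which may be technical.

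Spermatogenesis starts in the mouse as a near synchronous first wave. Spermatogonia divide by mitosis and enter meiosis, and primary spermatocytes then spend a long prophase pairing and recombining their chromosomes, through leptotene, zygotene and pachytene, before the meiotic divisions give haploid round spermatids. The X and Y chromosomes are silenced in pachytene spermatocytes, and small piRNAs bound by PIWI proteins keep transposons silent. Sertoli cells nurse the germ cells, Leydig cells make androgens, and a fetal Leydig cell population gives way to an adult one between birth and puberty. A testis sampled at one age is a mixture of all these cells. In such bulk samples fewer cells of a type and less RNA per cell cannot be told apart, and with every array scaled to the same mean a change is relative to all signals of the array.

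The values are array signals on a linear scale, and changes were fitted on log2(signal + 16), which understates the change of dim genes. A gene was represented by its brightest probe set. It was called at an adjusted p under 0.05, limma's test with Benjamini-Hochberg adjustment over all 13472 genes measured, together with a change of at least 2-fold. Same-day samples correlated at 0.869 to 0.973 at days 14 to 20, against 0.902 to 0.972 at days 6 to 10 and 0.93 to 0.98 at days 30 to 56. It was lowest at day 20 on array type B. On types A and C day 20 was also the lowest of days 14 to 20, at 0.936 and 0.904. At days 0 to 20 the samples of a day fell into 2 sets by their actin control signal, which was higher in sample 2 on type A and in sample 1 on types B and C, a split examined after seeing the data, and counts are given for each set alone. Marker sums checked the tissue. Round spermatid markers summed to signals of 2287 to 14549 at days 14 to 20, against 1685 to 2378 at days 6 to 10 and 57720 to 88460 at days 30 to 56, while the 1 measured epididymis marker stayed at 15.4 to 65.6 at days 14 to 20.

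Few genes were set apart at days 14 to 20 from both sides. In the comparison with days 6 to 10, 924 genes (6.86%) were higher and 673 (5%) lower at days 14 to 20, and in the comparison with days 30 to 56, 1007 (7.47%) were higher and 1220 (9.06%) lower. Both comparisons held at once, in the same direction, for 16 genes that peaked (0.119%) and 17 that dipped (0.126%). With the adjusted p alone and no fold threshold, 270 genes peaked (2%) and 144 dipped (1.07%). By that rule 2040 genes (15.1%) were higher and 2648 (19.7%) lower than at days 6 to 10, and 4145 (30.8%) were higher and 2188 (16.2%) lower than at days 30 to 56. All 6 samples of days 14 to 20 lay above the 12 others for 6 of the 16 peak genes, beside 0.408% of all genes, and below them for 6 of the 17 dip genes, beside 0.141%. The calls chose these genes, so nothing is read from those shares. The comparisons share the arrays of days 14 to 20, so their counts are not independent. The split depended on the scaling. With each array scaled to its median, 1120 genes were higher and 443 lower than at days 6 to 10, and 680 were higher and 1382 lower than at days 30 to 56. That scaling moved the median change of all genes to 0.02 and 0.07, against -0.10 and 0.19 with the deposited scaling. In the samples with the higher actin signal alone 17 genes peaked and 29 dipped, and in those with the lower actin signal alone 26 peaked and 28 dipped. Each of these sets shared 13 peak genes and 12 dip genes with the full set of samples.

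**Figure D1:**
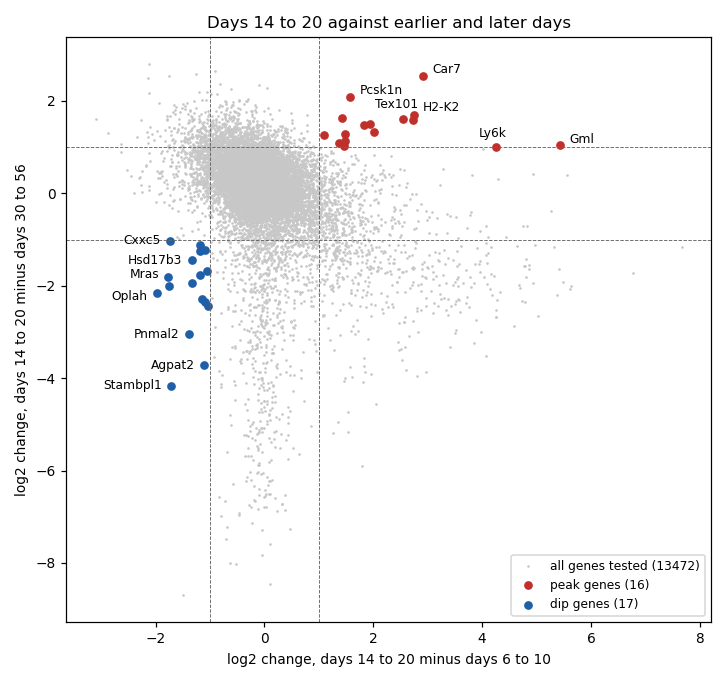
Each grey point is one of the 13472 genes measured, with its log2 change at days 14 to 20 against days 6 to 10 across and against days 30 to 56 upwards, and dashed lines mark 2-fold. The 16 peak genes (red) lie in the upper right corner and the 17 dip genes (blue) in the lower left, where few grey points lie, and Gml and Ly6k stand far to the right but just above the upper line.

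Ranked by the smaller of the 2 changes, the leading peak genes were Car7 and H2-K2, followed by Tex101 and the X-linked locus Gm9112. Car7 encodes a cytosolic carbonic anhydrase. Its signal ranged from 167 to 415 with a median of 343 at days 14 to 20, against 15.7 to 63.5 (median 24.9) at days 6 to 10 and 12.8 to 95.1 (median 43.1) at days 30 to 56. All 6 samples of days 14 to 20 lay above the 12 others. The log2 change was 2.91 ± 0.22 (SE) against days 6 to 10 (adjusted p = 3.21e-08) and 2.54 ± 0.22 against days 30 to 56 (adjusted p = 8.58e-08). Its samples had 23.9 and 63.5 at day 10, 346 and 415 at day 14, 356 and 341 at day 20, 95.1 and 71.7 at day 30, 40 and 46.2 at day 35, and 12.8 and 14.7 at day 56. Its level was thus already lower at day 30 than at day 20, and it declined further to day 56.

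Tex101 encodes a glycoprotein of germ cells that is held on the membrane by a GPI anchor and that mouse sperm need for fertility. It was one of the brightest peak genes, with signals of 2815 to 7186 (median 3230) at days 14 to 20, against 421 to 906 (median 644) at days 6 to 10 and 1115 to 1324 (median 1218) at days 30 to 56. The groups did not overlap. It was higher by 2.54 ± 0.16 than at days 6 to 10 (adjusted p = 1.55e-09) and by 1.62 ± 0.16 than at days 30 to 56 (adjusted p = 2.12e-07). The day 20 samples had 3136 and 7186, so the height of the peak at that day differed between its samples, and without the sample with the lower actin signal the changes were 2.34 and 1.42.

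The promoters of 4 genes that moved together are shown for their motif content. They are those of Car7 and Tex101, the leading named peak genes with a window, and those of Sycp1 and Mov10l1, a meiotic chromosome gene and a piRNA gene that peaked by less than 2-fold against one side. Each is 300 bases around the start of the gene from RefSeq on build GRCm38.p6, read 5′ to 3′ on the strand of the gene. Capitals mark matches on either strand to the MYB motif TAACGG, which MYBL1, a master regulator of pachytene genes, is known to bind, and to the NF-Y motif CCAAT. Car7 lies at chr8:104534450-104534749 on the plus strand, Tex101 at chr7:24672001-24672300 on the minus strand, Sycp1 at chr3:102936051-102936350 on the minus strand and Mov10l1 at chr15:88982744-88983043 on the plus strand.
Car7: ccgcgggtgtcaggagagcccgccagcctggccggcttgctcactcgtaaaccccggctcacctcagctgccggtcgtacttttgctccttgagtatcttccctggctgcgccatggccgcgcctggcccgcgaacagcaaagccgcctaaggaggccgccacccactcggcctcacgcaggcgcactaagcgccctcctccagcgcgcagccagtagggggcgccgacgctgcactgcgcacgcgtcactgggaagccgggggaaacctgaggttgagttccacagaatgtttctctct
Tex101: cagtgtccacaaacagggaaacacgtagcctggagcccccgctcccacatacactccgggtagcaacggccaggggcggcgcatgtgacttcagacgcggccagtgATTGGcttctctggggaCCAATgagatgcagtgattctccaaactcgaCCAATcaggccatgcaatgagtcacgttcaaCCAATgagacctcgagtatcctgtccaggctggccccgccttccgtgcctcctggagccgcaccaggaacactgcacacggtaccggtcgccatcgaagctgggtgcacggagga
Sycp1: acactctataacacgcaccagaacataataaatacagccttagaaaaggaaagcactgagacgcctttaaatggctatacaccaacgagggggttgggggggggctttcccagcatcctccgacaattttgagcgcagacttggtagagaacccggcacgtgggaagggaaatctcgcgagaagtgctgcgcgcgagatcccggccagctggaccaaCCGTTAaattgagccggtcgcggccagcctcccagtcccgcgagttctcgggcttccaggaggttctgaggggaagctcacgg
Mov10l1: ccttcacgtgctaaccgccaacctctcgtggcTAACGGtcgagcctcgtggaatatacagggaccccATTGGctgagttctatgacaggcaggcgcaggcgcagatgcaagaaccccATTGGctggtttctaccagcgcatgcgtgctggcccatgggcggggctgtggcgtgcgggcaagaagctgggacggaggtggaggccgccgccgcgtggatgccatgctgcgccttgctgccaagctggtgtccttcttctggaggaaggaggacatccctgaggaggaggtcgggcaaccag
The Car7 window holds neither motif, the Tex101 window holds CCAAT only, the Sycp1 window holds the MYB motif only and the Mov10l1 window holds both. The Sycp1 and Mov10l1 windows were picked from windows that hold the MYB motif. Its presence there was therefore fixed by the choice, and nothing is read from it.

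The MYB motif was present in 364 of the 10749 promoters of measured genes (3.39%). It was present in 18 of the 214 promoters of genes that peaked at any fold (8.41%) and in 8 of 110 of those that dipped at any fold (7.27%). Of the genes called at 2-fold, 0 of 9 peak genes with a window and 1 of 12 dip genes (Rmdn2) held it. The CCAAT motif was in 38.7% of all promoters, 40.2% of those of peak genes at any fold and 46.4% of those of dip genes at any fold. The RFX motif GTTGCCAT was in 1.24% of all promoters, and the peak gene Pcsk1n and the dip gene Klf4 held it, while the cAMP response element TGACGTCA was in 2.9% of all and in 0 of these 9 and 12. Matches to CCAAT and to the RFX motif can share letters, and a match is not a bound site. Mybl1 itself had signals of 124 to 405 at days 14 to 20, against 156 to 245 at days 6 to 10 and 146 to 321 at days 30 to 56, and its changes of 0.48 ± 0.32 and 0.34 ± 0.32 did not pass the test (adjusted p = 0.282 and 0.411).

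Proteins of the LY6/uPAR family, small cysteine-rich proteins on GPI anchors, gave 3 of the 16 peak genes. Besides Tex101 these were Ly6k, whose protein is a partner of TEX101 on mouse germ cells, and Gml. Ly6k had signals of 5881 to 13060 (median 6429) at days 14 to 20, against 97.2 to 1605 (median 348) at days 6 to 10 and 3255 to 4113 (median 3717) at days 30 to 56. Gml had 1382 to 2843 (median 1606) at days 14 to 20, against 12.9 to 63.6 (median 23.4) at days 6 to 10 and 731 to 1190 (median 866) at days 30 to 56. Neither gene overlapped between days 14 to 20 and the other samples. Ly6k had 1605 and 1329 at day 10 and 5881 and 5972 at day 14, and Gml had 63.6 and 50.9 at day 10 and 1616 and 1494 at day 14. Ly6k changed by 4.25 ± 0.28 (adjusted p = 5.67e-09) and 1.00 ± 0.28 (adjusted p = 0.00675) against the younger and the older samples. Gml changed by 5.43 ± 0.27 (adjusted p = 8.35e-11) and 1.04 ± 0.27 (adjusted p = 0.00372). The second change lies at the threshold for both genes. Ly6k was read by a probe set whose suffix warns of shared sequence, and its dim second probe set gave -0.66 and -0.81. In the samples with the higher actin signal alone it was 0.77 for Ly6k and 0.72 for Gml. The family was picked after its values were seen, so nothing is read from its share of peaks. Of its 18 measured members 3 peaked, beside 0.119% of all genes. Against days 6 to 10, 5 members were called higher and 1 lower, beside 6.86% and 5% of all genes. Compared with days 30 to 56, 3 were higher and 3 lower, beside 7.47% and 9.06% of all genes. Lypd4 shared the rise, with 299 to 5000 at days 14 to 20 and a change of 4.78 ± 0.26, but changed by -1.57 ± 0.26 against days 30 to 56.

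**Figure D2:**
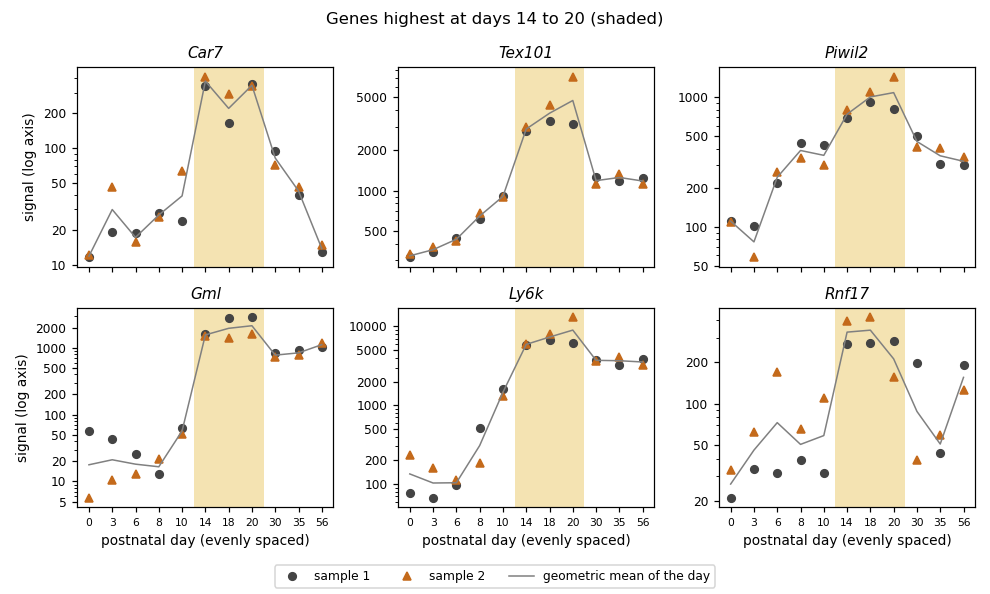
The signal of 6 peak genes (log axis) is plotted by postnatal day, with circles and triangles for samples 1 and 2, a grey line through the geometric mean of each day and days 14 to 20 shaded. Car7 returns to its early level by day 56, Tex101, Gml and Ly6k keep a lower plateau at days 30 to 56, and the samples of Rnf17 scatter outside the shaded days.

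Genes of the piRNA pathway and germ granules were split, with some at a peak, some still rising and some called in neither comparison. Piwil2, which encodes the PIWI protein MILI that binds piRNAs in spermatogonia and spermatocytes, had signals of 692 to 1448 (median 871) at days 14 to 20, against 218 to 444 (median 319) at days 6 to 10 and 299 to 504 (median 375) at days 30 to 56. The groups did not overlap. Its changes were 1.49 ± 0.17 (adjusted p = 3.99e-06) and 1.29 ± 0.17 (adjusted p = 1.29e-05). Rnf17, a Tudor domain protein of germ cell granules, had 157 to 420 (median 279), against 31.4 to 168 (median 52.6) and 39.2 to 198 (median 93), and changed by 1.94 ± 0.38 and 1.49 ± 0.38 (adjusted p = 0.000717 and 0.00389). Its samples overlapped with both sides, and a dimmer probe set of the gene gave 0.23 and 0.34. Mov10l1, the helicase that starts piRNA processing, peaked at any fold, with 3046 to 3965 at days 14 to 20, against 1549 to 2546 at days 6 to 10 and 996 to 1430 at days 30 to 56, and changes of 0.79 ± 0.12 and 1.49 ± 0.12. Tdrkh, a Tudor protein of piRNA trimming, was higher than at days 30 to 56 by 1.41 ± 0.17 (adjusted p = 3.69e-06), and its 0.37 ± 0.17 against days 6 to 10 did not pass (adjusted p = 0.0997). The Tudor genes Tdrd12 (0.12 ± 0.21 and 0.25 ± 0.21) and Tdrd3 (0.47 ± 0.13 and 0.21 ± 0.13) were called in neither comparison. Tudor, PIWI and related germ granule genes were grouped after their values were seen. Of the 10 measured 2 peaked, beside 0.119% of all genes, and nothing is read from that share.

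Other germ granule genes were lower at days 14 to 20 than at days 30 to 56. The piRNA and germ granule list had 13 measured members. Of these, 8 were higher and 0 lower than at days 6 to 10, beside 6.86% and 5% of all genes. Set against days 30 to 56, 3 were higher and 6 lower, beside 7.47% and 9.06% of all genes. The list's median changes were 1.31 and -0.52, beside -0.10 and 0.19 for all genes. Tdrd6 had 120 to 4841 at days 14 to 20, against 35.2 to 110 at days 6 to 10 and 3369 to 4727 at days 30 to 56, and changed by 3.77 ± 0.26 and -1.80 ± 0.26. Mael, Tdrd7, Gtsf1 and Ddx25 moved the same way as Tdrd6 in both comparisons. Ddx4, the germ cell helicase VASA, had 486 to 1230, against 281 to 476 and 1130 to 1521, and its changes were 1.30 ± 0.17 and -0.52 ± 0.17. Of the called peak genes Piwil2 is in the list and Rnf17 is not.

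Genes of early meiotic prophase held 5 of the 270 peaks at any fold but none at 2-fold. These were Sycp1, Dmc1, Msh5, Tex12 and Ythdc2, out of 22 measured members, where 2% of all genes peaked at any fold. Of the 22, 11 were higher and 0 lower than at days 6 to 10, beside 6.86% and 5% of all genes. Compared with days 30 to 56, 3 were higher and 1 lower, beside 7.47% and 9.06% of all genes. The list's median changes were 0.97 and 0.29. Sycp1, the transverse filament of the synaptonemal complex, had signals of 101 to 935 (median 701) at days 14 to 20, against 51.9 to 266 (median 117) at days 6 to 10 and 214 to 359 (median 318) at days 30 to 56. It changed by 2.02 ± 0.31 (adjusted p = 5.66e-05) and 0.84 ± 0.31 (adjusted p = 0.033), and without sample 1 of day 20 the second change was 1.22. Its level was highest at day 14, and day 20 lay below day 14 by 1.67 on the log2 scale (adjusted p = 0.032). The day 20 samples of Sycp1 differed, with 101 in sample 1 and 565 in sample 2, against 833 and 797 at day 14. Dmc1, the meiotic recombinase, had 50.4 to 179 (median 106), against 27.5 to 63.1 (median 50.8) and 50.8 to 80.4 (median 54.3), with changes of 0.91 ± 0.18 (adjusted p = 0.000765) and 0.64 ± 0.18 (adjusted p = 0.00816). The first change of Dmc1 was 1.08 without sample 2 of day 18 and 1.01 without sample 1 of day 8. Tex12, of the central element of the synaptonemal complex, had 672 to 1971, against 588 to 999 and 474 to 661, and changed by 0.73 ± 0.15 and 1.21 ± 0.15. Msh5, a MutS protein of crossover formation, changed by 1.12 ± 0.15 and 0.72 ± 0.15, and Ythdc2, an RNA helicase needed for meiotic prophase, by 1.03 ± 0.22 and 0.78 ± 0.22.

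Other prophase genes rose by days 14 to 20 and were not called different from days 30 to 56. Spo11, which cuts the DNA that starts recombination, had 1531 to 3176 (median 2284) at days 14 to 20, against 266 to 600 (median 321) at days 6 to 10 and 1630 to 2855 (median 1920) at days 30 to 56, with changes of 2.60 ± 0.17 (adjusted p = 6.09e-09) and 0.14 ± 0.17 (adjusted p = 0.544). Msh4, Meioc, Stag3 and Terb1 were also higher than at days 6 to 10 and not called against days 30 to 56. Stra8, the retinoic acid target that triggers meiosis, was already past its highest day, with 68 to 352 (median 164), against 110 to 433 (median 293) and 39.5 to 67.2 (median 54.6), and changes of -0.56 ± 0.16 (adjusted p = 0.00912) and 1.38 ± 0.16 (adjusted p = 1.43e-06). Sycp3 was dim, at 9.9 to 103 at days 14 to 20, against 13.6 to 67.3 and 16.1 to 87.7, and its changes of -0.09 ± 0.34 and 0.14 ± 0.34 did not pass (adjusted p = 0.874 and 0.767). Dazl, a germ cell RNA-binding protein, ranged from 126 to 2127, against 443 to 1627 and 246 to 670, and its -0.20 ± 0.50 and 1.04 ± 0.50 did not pass (adjusted p = 0.794 and 0.0944), but without sample 1 of day 20 the second was 1.58 (adjusted p = 0.00475). Brca1, a repair gene, changed by -0.33 ± 0.15 and 0.23 ± 0.15 and Cdk1, the kinase of cell division, by 0.15 ± 0.12 and 0.26 ± 0.12, and neither passed. H2ax, the histone that marks DNA breaks and the sex body, peaked at any fold, with 844 to 1172 against 459 to 725 and 493 to 621, and changes of 0.78 ± 0.10 on both sides.

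Genes of pachytene and diplotene spermatocytes mostly did not peak. Of 29 measured members 21 were higher and 0 lower than at days 6 to 10, beside 6.86% and 5% of all genes. Relative to days 30 to 56, 0 were higher and 18 lower, beside 7.47% and 9.06% of all genes. The list's median changes were 1.97 and -1.58. Ldhc, the lactate dehydrogenase of germ cells, had 506 to 7064 (median 5135) at days 14 to 20, against 1.6 to 60.6 (median 4.3) at days 6 to 10 and 7466 to 11288 (median 9213) at days 30 to 56, and changed by 6.77 ± 0.42 and -1.71 ± 0.42. Hspa2, the chaperone of spermatocytes, had 2317 to 11284 (median 6590), against 287 to 525 and 6136 to 8482, and changed by 3.79 ± 0.17 (adjusted p = 1.65e-11) and -0.40 ± 0.17 (adjusted p = 0.0577). The meiotic cyclin Ccna1 had 4.4 to 264, against 3 to 14.9 and 392 to 539, and changed by 1.86 ± 0.26 and -2.46 ± 0.26. Within days 14 to 20 it climbed steeply, with day 20 above day 14 by 3.53 on the log2 scale (adjusted p = 4.9e-05). Ccnb1ip1, a ubiquitin ligase of crossing over, was the member that peaked at any fold, by 0.82 ± 0.17 and 0.64 ± 0.17.

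Spermatid genes lay below their later level, with a few already on. Of 31 round spermatid markers 11 were higher than at days 6 to 10 and 28 lower than at days 30 to 56. Of 26 elongating spermatid markers 4 and 21 were, beside 6.86% and 9.06% of all genes. Acr, the acrosomal protease, had 16 to 722, against 15 to 28.1 and 1030 to 1738, and changed by 2.56 ± 0.27 and -2.78 ± 0.27. Pgk2, the glycolytic kinase of germ cells, had 7.1 to 195, against 2.5 to 9.6 and 942 to 1535, and changed by 1.82 ± 0.21 and -4.08 ± 0.21. Prm1, a protamine of condensing spermatids, had 5.1 to 46.1, against 4.3 to 759 and 10500 to 16479, and its -1.49 ± 0.69 against days 6 to 10 did not pass (adjusted p = 0.109) while its change against days 30 to 56 was -8.70 ± 0.69. The day 6 samples of Prm1 had 18 and 759, against 4.3 to 98.6 at days 8 and 10. Without sample 1 of day 6 its first change was -2.24, but day 6 then rested on the sample at 759. That sample also had the highest Ldhc signal of days 6 to 10, at 60.6. The suffix of the Prm1 probe set warns of shared sequence. Crem, the activator of spermatid genes, had 43.7 to 107, against 18.8 to 43.8 and 35.1 to 92.2, and changed by 1.06 ± 0.19 (adjusted p = 0.00023) and 0.33 ± 0.19 (adjusted p = 0.166). That first change turned to -0.13 (adjusted p = 0.781) when probe sets with a letter suffix were left out and another probe set stood for the gene. The suffix of the brightest Crem probe set warns of shared sequence. Its first change was 0.91 without sample 2 of day 20, 0.95 without sample 2 of day 6 and 0.99 without sample 1 of day 14. Of 30 genes of the axoneme, the core of the sperm tail, 18 were higher than at days 6 to 10, beside 6.86% of all genes. Set against days 30 to 56, 16 were lower, beside 9.06% of all genes.

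**Figure D3:**
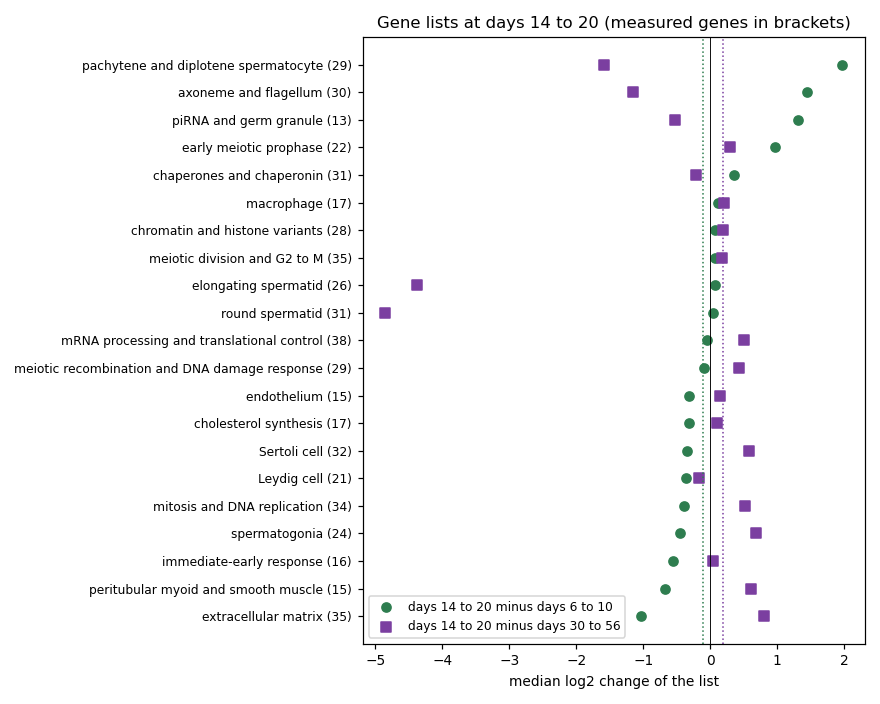
For gene lists with at least 10 measured members, circles give the median log2 change at days 14 to 20 against days 6 to 10 and squares that against days 30 to 56, with dotted lines at the medians of all genes (-0.10 and 0.19). Early meiotic prophase is at the right of both dotted lines (0.97 and 0.29), pachytene and axoneme genes lie on opposite sides, and the Leydig list (-0.36 and -0.16) lies left of both.

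The remaining peak genes came from several classes and are named because each called gene is accounted for, after their values were seen. H2-K2, a class I MHC gene, had 278 to 546 (median 429) at days 14 to 20, against 19.6 to 171 (median 37.3) at days 6 to 10 and 33.2 to 323 (median 158) at days 30 to 56, with changes of 2.74 ± 0.29 (adjusted p = 9.12e-07) and 1.70 ± 0.29 (adjusted p = 0.000109). Of 8 measured class I genes 5 peaked at any fold, H2-K2, H2-K1, H2-D1, H2-Q4 and H2-Q5, beside 2% of all genes. But all 8 were read by probe sets whose suffix warns of shared sequence, so the genes may not be separate measurements. Markers of macrophages, which present antigen, summed to 1302 to 1837 at days 14 to 20. The sums were 1304 to 1459 at days 6 to 10 and 2232 to 2811 at days 30 to 56. Of the 17 macrophage markers 1 peaked at any fold (Mpeg1), beside 2% of all genes. Their part in the class I signal was not tested.

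On chromosome X, 4 of 413 genes peaked (0.969%), namely Pcsk1n, Gm9112, 1700011M02Rik and 1700018G05Rik, beside 0.0923% of autosomal genes. At any fold 2.18% of X-linked and 2.01% of autosomal genes peaked. Pcsk1n, which encodes proSAAS, an inhibitor of a prohormone convertase, had 21.5 to 479 (median 225) at days 14 to 20, against 13.5 to 215 (median 43.5) at days 6 to 10 and 10.8 to 59.2 (median 37.3) at days 30 to 56. It changed by 1.58 ± 0.32 (adjusted p = 0.000815) and 2.09 ± 0.32 (adjusted p = 3.76e-05). Its samples had 21.5 and 201 at day 20, against 263 and 479 at day 14. Gm9112 had 1483 to 3411 (median 2251), against 60.1 to 1012 and 658 to 815, with no overlap, and changed by 2.72 ± 0.21 and 1.59 ± 0.21. The clone loci 1700011M02Rik (1.42 and 1.62) and 1700018G05Rik (2.01 and 1.33) were at their highest at day 14 but already bright at day 10. At day 10 1700011M02Rik had 1072.9 and 1292.7, against 1181.6 to 2259.8 at days 14 to 20. For 1700018G05Rik these were 1150.5 and 924.9, against 749.5 to 1501.9. Both loci and Pcsk1n, with 115 and 214.5 at day 10, lost their call with day 6 left out. They also lost it against days 10 and 30 only. A dim second probe set of 1700011M02Rik gave -0.30 and -0.81, the opposite direction. Gm9112 and 1700011M02Rik were read by probe sets whose suffix warns of shared sequence, so these peaks may not be separate measurements. The probe set of 1700018G05Rik has a suffix of another kind. X-linked genes as a whole were more often called lower than higher against days 6 to 10. Of 413 X-linked genes 1.69% were higher and 17.2% lower than at days 6 to 10, beside 7.03% and 4.62% of 13000 autosomal genes, and 20.3% were higher and 6.3% lower than at days 30 to 56, beside 7.09% and 9.13%. The median X-linked level relative to day 6 was -0.18 at day 14, -0.64 at day 18, -0.83 at day 20 and -1.02 at day 30 on the log2 scale, where the autosomal medians were -0.03, -0.11, -0.14 and -0.23. The difference between X-linked and autosomal genes was not tested.

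The last peak genes were dimmer or nearer the threshold. Tcaim, a mitochondrial protein named for an effect on T cells, had 14.7 to 165 (median 139), against 11.3 to 25.6 and 15.1 to 54.6, with 5 of 6 samples above all others and sample 2 of day 20 at 14.7. It changed by 1.82 ± 0.32 and 1.49 ± 0.32. Coq5, a methyltransferase of coenzyme Q synthesis, changed by 1.48 ± 0.22 and 1.14 ± 0.22 (another probe set gave 0.58 and 0.07), Plekhg4 by 1.09 ± 0.31 and 1.27 ± 0.31, and Lrp8, a receptor for reelin and selenoprotein P, by 1.37 ± 0.31 and 1.08 ± 0.31. Lrp8 was highest at day 14, with 484 and 539. Elavl1, the RNA-binding protein HuR, had 586 to 1202 (median 1004), against 294 to 367 and 385 to 603, and changed by 1.46 ± 0.20 (adjusted p = 2.6e-05) and 1.03 ± 0.20 (adjusted p = 0.000444). The samples of Elavl1 overlapped with days 30 to 56, and dimmer probe sets of Elavl1 gave -0.55 to 1.25 against days 6 to 10 and -0.05 to 1.48 against days 30 to 56, so they disagreed. Just outside the threshold lay Urb2, with 1.02 ± 0.12 and 0.98 ± 0.12, beside Ly6k at 1.00 just inside it.

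**Figure D4:**
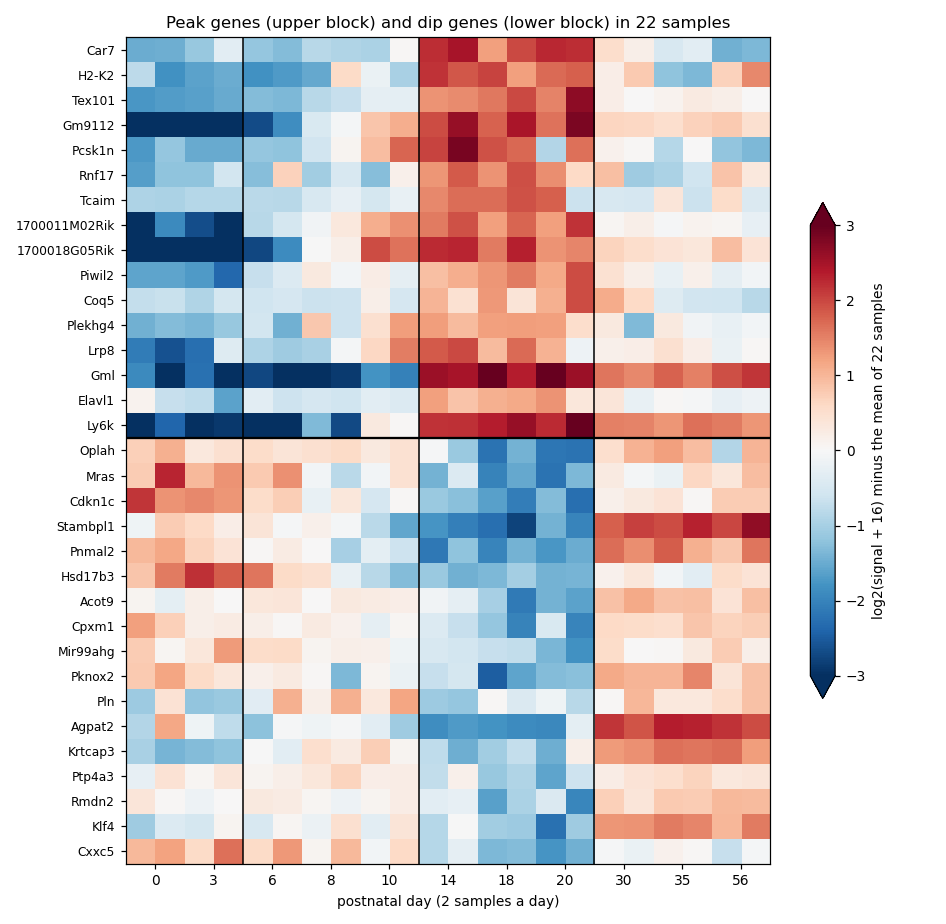
Rows are the 16 peak genes (upper block) and the 17 dip genes (lower block), columns the 22 samples by postnatal day, and colour gives log2(signal + 16) minus the mean of the gene's 22 samples. The 6 columns of days 14 to 20 marked by vertical lines are red for the peak genes and blue for the dip genes, with single cells that stand out, such as Tcaim and Pcsk1n at day 20.

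Ranked by the smaller of the 2 changes, Oplah, Mras and Cdkn1c led the 17 dip genes. Cdkn1c, the imprinted cell cycle inhibitor p57, had signals of 22.6 to 68.9 (median 51.6) at days 14 to 20, against 115 to 290 (median 195) at days 6 to 10 and 175 to 298 (median 221) at days 30 to 56. The groups did not overlap, and its changes were -1.76 ± 0.18 (adjusted p = 6.87e-07) and -2.01 ± 0.18 (adjusted p = 7.95e-08). Cdkn1c was higher still at days 0 and 3, with 444 to 805. Oplah, the 5-oxoprolinase of glutathione turnover, had 24.2 to 166 (median 39.7), against 212 to 263 (median 242) and 85.1 to 419 (median 350), and changed by -1.98 ± 0.26 (adjusted p = 1.26e-05) and -2.16 ± 0.26 (adjusted p = 3.14e-06). One day 56 sample at 85.1 overlapped with day 14. Mras, a small GTPase of the Ras family, had 10.9 to 77.9, against 55 to 310 and 93.6 to 224, and changed by -1.76 ± 0.28 and -1.81 ± 0.28.

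Several dips sat below a strong later rise. Stambpl1, a deubiquitinase, had 12.2 to 55.8 (median 31.6) at days 14 to 20, against 49.1 to 237 (median 169) at days 6 to 10 and 645 to 1202 (median 762) at days 30 to 56, and changed by -1.72 ± 0.20 (adjusted p = 2.99e-06) and -4.17 ± 0.20 (adjusted p = 9e-12). Pnmal2, of a retrotransposon-derived gene family, had 24.2 to 61.4 (median 42.2), against 73.4 to 193 and 296 to 607, with no overlap, and changed by -1.39 ± 0.22 and -3.05 ± 0.22. Agpat2, an acyltransferase of phospholipid synthesis, changed by -1.11 ± 0.32 and -3.72 ± 0.32, Klf4, a zinc finger transcription factor, by -1.04 ± 0.22 and -2.43 ± 0.22, Krtcap3 by -1.09 ± 0.23 and -2.35 ± 0.23, and Pknox2, a homeobox factor, by -1.14 ± 0.21 and -2.29 ± 0.21. For 15 of the 17 dip genes the median at days 30 to 56 was above that at days 6 to 10. The lowest day was day 18 for 8 of them, day 20 for 7 and day 3 for Pln and Krtcap3, so 15 were at their lowest within days 14 to 20.

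**Figure D5:**
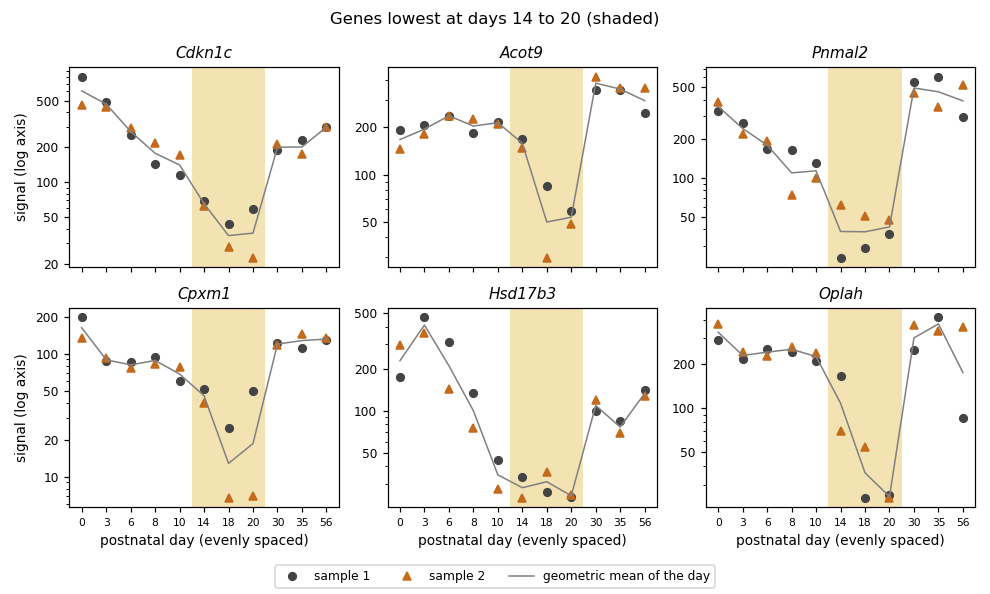
The signal of 6 dip genes (log axis) is plotted by postnatal day, with circles and triangles for samples 1 and 2, a grey line through the geometric mean of each day and days 14 to 20 shaded. Hsd17b3 reaches its low level by day 10, while Acot9 and Oplah hold a level until day 10 and are lowest at days 18 and 20.

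Androgen synthesis gave one dip. Hsd17b3, the enzyme that makes testosterone from androstenedione, had signals of 23.6 to 36.6 (median 25.6) at days 14 to 20, against 27.4 to 311 (median 104) at days 6 to 10 and 69.5 to 140 (median 110) at days 30 to 56. It changed by -1.33 ± 0.19 (adjusted p = 2.69e-05) and -1.45 ± 0.19 (adjusted p = 7.38e-06). Its day 10 samples had 44.1 and 27.4, of which the lower overlapped with days 14 to 20, and in the samples with the higher actin signal alone the first change was -0.96. Cyp17a1, the steroid hydroxylase before it in the pathway, dipped at any fold, with 61.2 to 224 (median 181), against 185 to 309 (median 262) and 686 to 1344 (median 868), and changes of -0.66 ± 0.18 (adjusted p = 0.00737) and -2.46 ± 0.18 (adjusted p = 3.91e-09). Cyp11a1, the first enzyme, did not pass against days 6 to 10 (-0.16 ± 0.17, adjusted p = 0.515) and was lower than at days 30 to 56 (-1.40 ± 0.17). Hsd3b6, the adult form of the next enzyme, was higher than at days 6 to 10 by 1.33 ± 0.20 and was also called lower than at days 30 to 56. Of 21 Leydig cell markers 1 was higher and 6 lower than at days 6 to 10, beside 6.86% and 5% of all genes. Relative to days 30 to 56, 3 were higher and 6 lower, beside 7.47% and 9.06% of all genes. The markers summed to 4518 to 6621 at days 14 to 20, against 7382 to 9406 and 5154 to 6421, and their part in the Hsd17b3 dip was not tested.

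The other dip genes were a mixed set, named because each called gene is accounted for. Acot9, a mitochondrial acyl-CoA thioesterase encoded on chromosome X, had 29.6 to 170 (median 71.4), against 185 to 238 (median 222) and 246 to 422 (median 351), with no overlap, and changed by -1.32 ± 0.16 (adjusted p = 5.84e-06) and -1.93 ± 0.16 (adjusted p = 3.26e-08). Another probe set of the gene gave -0.97 and -1.85. Of 14 other probe sets, which 9 of the 33 peak and dip genes had, 7 had the same sign as the called one in both comparisons. Those that did not include one of Krtcap3 (-0.14 and 0.06) and one of Mras (-0.71 and 0.53). Cpxm1, a secreted protein of the carboxypeptidase family, had 6.7 to 52 against 59.7 to 93.3 and 112 to 146, and changed by -1.18 ± 0.21 and -1.77 ± 0.21. Mir99ahg, the host RNA of a miRNA cluster, had 7.4 to 43.7 against 59.8 to 107 and 68.2 to 125, and changed by -1.18 ± 0.22 and -1.25 ± 0.22. Rmdn2, a regulator of microtubules, had 40.9 to 172 against 183 to 258 and 270 to 420, and changed by -1.05 ± 0.21 and -1.68 ± 0.21. None of these 3 overlapped with the younger or older samples. Rmdn2, Acot9 and Mras were read by probe sets whose suffix warns of shared sequence. The unsuffixed probe set of Rmdn2 gave -0.92 and -0.38. With suffixed probe sets left out Rmdn2 and Acot9 lost their call and Mras kept it, and Rmdn2 also lost it with probe sets averaged. Pln, the inhibitor of the calcium pump in muscle (-1.19 and -1.12), Ptp4a3, a phosphatase (-1.08 and -1.22), and Cxxc5, a zinc finger protein (-1.74 and -1.03), lay near the threshold in at least one comparison, and Tmem184c, at -0.998 ± 0.287 and -1.77 ± 0.29, lay just outside it.

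Of the somatic lists, extracellular matrix genes had the most calls and no dip. Of 35 extracellular matrix genes 19 were lower than at days 6 to 10 and 13 higher than at days 30 to 56, with 0 peaks or dips. Of 32 Sertoli cell markers 5 were lower and 1 higher than at days 6 to 10. Compared with days 30 to 56, 9 of these markers were higher and 0 lower. Over all genes 5% were lower and 6.86% higher than at days 6 to 10, and 7.47% higher and 9.06% lower than at days 30 to 56. Kitl, the Sertoli cell ligand of the receptor KIT, had 28.3 to 499 (median 319) at days 14 to 20, against 521 to 946 (median 724) at days 6 to 10 and 78.4 to 113 (median 91.9) at days 30 to 56, and changed by -1.64 ± 0.27 and 1.13 ± 0.27, the second being 0.79 without sample 2 of day 20 and 0.89 without sample 1 of day 18. Kit, its receptor on spermatogonia, changed by -0.59 ± 0.19 and 0.63 ± 0.19. Gata4, a transcription factor of Sertoli and Leydig cells, was lower than at days 6 to 10 by 1.61 ± 0.25 on the log2 scale, and Acta2, the actin of peritubular muscle cells, was higher than at days 30 to 56 by 1.55 ± 0.21. Cldn11, a claudin in the tight junctions between Sertoli cells, had 353 to 798, against 341 to 979 and 155 to 280, and changed by -0.17 ± 0.14 (adjusted p = 0.378) and 1.09 ± 0.14 (adjusted p = 5.93e-06), the second being 0.98 without sample 1 of day 18. Of the 32 Sertoli cell markers 3 peaked at any fold, Gata1, Rhox5 and Tsx, beside 2% of all genes. Tsx had 251 to 510 at days 14 to 20, against 16.4 to 137 at days 6 to 10 and 182 to 264 at days 30 to 56. Boll, Ccnb1, Hormad1 and Piwil1 were not analysed here.

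Within days 14 to 20 the peak genes were spread over the days, while the testis as a whole changed. The highest day was day 14 for 7 of the 16 peak genes, day 18 for 4 and day 20 for 5. Day 20 differed from day 14 for 1003 genes that were higher (7.45%) and 1133 that were lower (8.41%), or 1320 and 649 with each array scaled to its median. Of the 33 peak and dip genes 4 were among them, all lower at day 20, which were the peak gene Pcsk1n and the dip genes Oplah, Acot9 and Klf4. Of the 270 peaks at any fold, 127 were highest at day 20, 82 at day 18 and 59 at day 14. Each comparison therefore uses the mean over days of differing level.

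Leaving out 1 sample took 15 of the 33 genes under 2-fold in at least one fit, with the adjusted p still under 0.05 each time. Among the peaks, the change against days 30 to 56 was 0.82 for Ly6k without sample 2 of day 20, and 0.95 to 1.00 without sample 2 of days 14, 18, 30 or 56 or sample 1 of day 35. For Gml it was 0.88 without sample 1 of day 18 and 0.90 without sample 1 of day 20. For Elavl1 it was 0.86 without sample 1 of day 20, 0.94 without sample 2 of day 30 and 0.97 without sample 1 of day 14. For Lrp8 it was 0.88 without sample 1 of day 20 and 0.96 without sample 2 of day 18, and for Coq5 it was 0.99 without sample 1 of day 18 or sample 2 of day 20. Plekhg4 changed against days 6 to 10 by 0.85 to 0.97 without sample 2 of day 6 or 8 or sample 1 of day 10 or 20, and against days 30 to 56 by 1.00 without sample 2 of day 30. With the day as a random block 11 of the 16 peak genes and all 17 dip genes kept their call. The adjusted p of Ly6k (0.154), 1700018G05Rik (0.0801) and Lrp8 (0.0546) against days 30 to 56, and of Plekhg4 (0.064) and Pcsk1n (0.0577) against days 6 to 10, then missed the threshold. With 1 sample left out, 10 of the 16 peak genes kept their call in every fit. Of these, Car7, Tex101, Piwil2, Gm9112, H2-K2, Rnf17, Tcaim and 1700011M02Rik also kept it with the random block.

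Among the dips the change against days 6 to 10 was the one most often lost. For Klf4 it was -0.85 without sample 1 of day 20, and -0.90 to -0.95 without sample 1 of day 14 or sample 2 of days 6, 8 or 10. Rmdn2 had -0.79 and Cpxm1 -0.93 without sample 2 of day 20, and Rmdn2 had -0.93 without sample 1 of day 18. Krtcap3 had -0.81 and Agpat2 -0.83 without sample 1 of day 20. Krtcap3 had -0.98 without sample 1 of day 10 and -0.97 without sample 2 of day 14, and Agpat2 -0.99 and -0.91 without sample 1 of day 10 and sample 2 of day 6. Pknox2 had -0.91 without sample 1 of day 8 and -0.99 without sample 1 of day 18, and Ptp4a3 had -0.94 and -0.93 without sample 1 of day 14 and of day 20. Pln had -0.95 without sample 2 of day 6. Against days 30 to 56, Cxxc5 changed by -0.92 to -0.97 without sample 2 of day 56 or sample 1 of day 14 or 20, and Pln by -0.953 and -0.997 without sample 2 of day 30 and of day 20. The call held in each such fit for 8 of the 17 dip genes. These were Cdkn1c, Oplah, Mras, Stambpl1, Pnmal2, Acot9, Hsd17b3 and Mir99ahg.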

How the data were processed

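Signal intensities of 66 arrays were used as deposited. Per the labels, the authors scaled the intensity of every array to a mean of 125, and with 2% of probe sets left out at each end the deposited intensities average 125.0 to 125.1 on each array. Which program computed them is not given in the sources used here. No detection calls were used, so the number of arrays and the signal level limit the precision.

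Of 36899 probe sets, 198 were controls, 29131 named 1 gene, 724 several and 6846 none, and 29044 of the first were matched to the RefSeq table of GRCm38.p6. Probe sets of one gene were kept when 2 or more of a type's 22 arrays reached a signal of 50. Their log2(signal + 16) was fitted per type in limma 3.58.1 under R 4.3.3, with a mean for each of 11 days (lmFit) and trended eBayes moderation, which leaves 11 residual degrees of freedom. The days of a window were averaged in the contrast. The brightest of 22191 probe sets stood for each of 13472 genes, and two-sided p-values were adjusted over them within each comparison. The code was tested on simulated data.

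The genes described and the gene lists were chosen with earlier results of these data known. The rule named up to 10 peaks and 10 dips with the largest smaller change whose samples do not overlap, clone names left out, which gave 5 and 6, with up to 4 called members per list and 28 textbook genes, of which 23 were measured. The other called genes are named because all 33 are accounted for. Alternatives covered the pseudocount, a floor, filters, scaling, quantile normalization, probe set choice, the arrays fitted, days and samples left out and the replicate number as a block. The actin sets were added after seeing the data.

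The replicate numbers were not taken as pairs, since not every pair correlated over 0.1. The correlation of deviations between same-numbered samples of 2 days was over 0.1 in 43 of 108 pairs of days and types at days 6 to 56, with a lowest value of -0.21. Same-numbered samples did deviate together at days 6 to 20, where 37 of 45 pairs were over 0.1 (median 0.16), against 2 of 9 at days 30 to 56.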

Additional observations from a re-analysis of the deposited data

Results flagged for a closer look

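Among the genes that peaked or dipped, 4 also differed between day 20 and day 14 in limma's test, with an adjusted p under 0.05 and at least 2-fold. Pcsk1n had signals of 21.5 and 201 at day 20, against 263 and 479 at day 14 (log2 change -2.04, adjusted p = 0.013). Oplah had 25.3 and 24.4 at day 20, against 166 and 70.3 at day 14 (-1.62, adjusted p = 0.017). Acot9 had 58.7 and 48.8 at day 20, against 170 and 148 at day 14 (-1.33, adjusted p = 0.0029). Klf4 had 29.2 and 86.2 at day 20, against 102 and 195 at day 14 (-1.21, adjusted p = 0.033). In Pcsk1n and Klf4 the lower value at day 20 is that of the sample with the lower actin signal. Dixon's test for an outlying sample was run on the 11 leading genes alone and marked none. Those genes were chosen for samples that lie clear of the other ages, so this says nothing of genes such as Tcaim, with 14.7 in one day 20 sample.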

How the results depend on the processing

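Genes that peaked numbered 33 without day 14, 26 in the lower-actin samples, 10 with a pseudocount of 64, 9 against days 10 and 30 only and 270 with no fold threshold, beside 16. Genes that dipped numbered 37 without day 14, 29 in the higher-actin and 28 in the lower-actin samples, 42 with a pseudocount of 1, 4 with a pseudocount of 64 and 144 with no fold threshold, beside 17. Genes called against days 6 to 10 numbered 2529 without day 14, 1062 without day 20, 936 with a pseudocount of 64 and 4688 with no fold threshold, beside 1597. Those called against days 30 to 56 numbered 1447 without day 14, 1340 with a pseudocount of 64 and 6333 with no fold threshold, beside 2227. With the replicate block the counts were 16 peaks, 17 dips, 1604 and 2235. With the day as a random block they were 11 peaks, 17 dips, 1540 and 2172. Leaving out 1 sample gave 13 to 18 peaks, 17 to 24 dips, 1592 to 1682 genes against days 6 to 10, 2208 to 2323 against days 30 to 56 and 1447 to 2274 between day 20 and day 14. In these fits 15 peak or dip genes lost a call at least once, always to a change between 0.79 and 1.00 in size with an adjusted p of at most 0.0476. The first change of Crem turned to -0.13 without suffixed probe sets, as the report gives. Car7, Gm9112, H2-K2, Piwil2 and Tex101 (of 16) and Cdkn1c, Mras and Oplah (of 17) were called in every setting in which they were measured. Of 4904 recomputed gene comparisons 4632 kept their direction and call. Apart from the fold threshold and the fewer samples, the cause of these moves was not tested. With 2 samples a day, genes dimmer than the pseudocount have little measured change.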

Other observations

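Chaperone and mRNA processing genes also held peaks at any fold. Of 31 chaperone and chaperonin genes, Hspa5, Cct8 and Hsph1 peaked, where 2% of all genes peaked at any fold. Hspa5, the chaperone of the endoplasmic reticulum, had signals of 1782 to 2797 at days 14 to 20, against 932 to 1837 at days 6 to 10 and 1241 to 1545 at days 30 to 56, and changed by 0.71 ± 0.13 and 0.66 ± 0.13. Of 38 genes of mRNA processing and translational control, Khdrbs3, a STAR family RNA-binding protein, had 801 to 2737, against 561 to 664 and 979 to 1512, and changed by 1.61 ± 0.13 and 0.64 ± 0.13, and Cstf2t, the cleavage factor of male germ cells, by 0.48 ± 0.12 and 0.50 ± 0.12. Among immediate-early genes Dusp1, a phosphatase of MAP kinases, dipped at any fold, with 35.7 to 117, against 102 to 179 and 119 to 132, and changes of -0.82 ± 0.14 and -0.80 ± 0.14. Des, the intermediate filament of muscle, dipped at any fold by -0.51 ± 0.15 and -0.75 ± 0.15.

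Erythroid markers, among them haemoglobin genes, summed to 2681 to 7880 at days 14 to 20, against 2844 to 5046 at days 6 to 10 and 1015 to 1470 at days 30 to 56, and none of the 6 measured peaked or dipped.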
